A study of Mus musculus with 4 samples.

Results

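The genes described here are 32 genes of glucose breakdown and of the cellular response to low oxygen, among the 20284 genes counted in single cells of mouse embryoid bodies. They were chosen by name, as a list of glycolytic enzymes, glucose transporters, oxygen sensors and targets of the hypoxia-inducible factors (HIFs). Earlier results of these data were known when the list was made. The muscle forms of 3 enzymes, Eno3, Pfkm and Pgam2, were set against the common forms of the same enzymes. All 32 had a row in the table and all 32 passed the filter on low counts in the whole culture.

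Embryoid bodies are aggregates in which mouse embryonic stem cells (mESC) differentiate without an imposed direction. All cells came from cultured organoids at day 9. The control group came from control mESC and the other group from mESC given a pulse of DUX, a transcription factor of the early mouse embryo, before differentiation. Each group had 2 biological replicates, and each library is named here by its group and replicate number. The mESC line, the promoter behind the DUX pulse, its length and the number of clones are not given in the sources used here. Dux itself has no row in the table and was not analysed here, so the pulse could not be checked at the RNA level. Nothing states whether the replicates of a group came from separate stem cell cultures, so the p-values measure the spread between these libraries, which may in part be technical.

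Glycolysis turns glucose into pyruvate in a fixed series of enzyme steps and yields ATP without oxygen. Several steps are served by isoforms from separate genes, and heart and skeletal muscle use muscle forms of enolase, phosphofructokinase and phosphoglycerate mutase. When oxygen is low, prolyl hydroxylases no longer mark HIF alpha subunits for destruction, and the stabilised HIF dimer binds hypoxia response elements, which share a short core sequence, near many glycolytic genes. The early heart is known for a strong reliance on glycolysis before it matures towards fatty acid oxidation.

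After cells with few genes or a high mitochondrial share were removed, the controls kept 2824 and 2636 cells with 96344329 and 78167098 unique molecular identifiers (UMIs), and the DUX-pulsed libraries kept 2063 and 1353 cells with 65062824 and 36462169 UMIs. A UMI counts 1 captured RNA molecule, so levels are given as UMIs scaled to 1 common library total (CPM). They compare genes per molecule, and no length enters them. Median mitochondrial shares were 6.22% and 6.42% in control cells and 4.01% and 4.54% in DUX-pulsed cells. The libraries shared 8 cell barcodes. Cells were grouped into classes by clustering without the 32 genes and their pathway, and a cluster took a name with the ending "-like" only from its markers. Cardiomyocyte-like cells accounted for 1.98% and 0.948% of the cells in the controls, against 19.6% and 20.5% in the DUX-pulsed libraries, that is 56, 25, 404 and 278 cells. Mesenchyme-like cells accounted for 7.61% and 4.86% of the cells in the controls, against 22.1% and 23.7% in the DUX-pulsed libraries. A further cluster, number 22, led with Tdgf1, Ankrd1 and the smooth muscle gene Acta2. It had 17 of 18 cardiomyocyte markers raised, with 9 cardiomyocyte and 4 smooth muscle markers among its top 30 genes. Its top 10 held 3 smooth muscle and 2 cardiomyocyte markers, so by the naming rule it stayed unnamed. It held 86 and 72 control cells and 6 and 4 DUX-pulsed cells. In clusters made with all variable genes, a cluster with the same 3 leading genes was named cardiomyocyte-like. The cardiomyocyte-like class then held 134 and 89 control cells and 404 and 280 DUX-pulsed cells. Unnamed clusters with a median depth over 3 times lower than that of their libraries were set aside, with 360 and 435 control and 120 and 226 DUX-pulsed cells, and enter only the whole culture.

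Promoters of 5 genes are shown because they cover members that changed, a member that did not, and a muscle isoform. Each run holds the 250 bases before a transcription start, 5′ to 3′ on the gene's strand, from RefSeq promoters on build GRCm38.p6 of the mouse genome. Capitals mark every match to ACGTG or GCGTG on either strand (CACGT or CACGC on the other strand), which are the spellings of the HIF core. A palindromic CACGTG was counted as a pair of overlapping matches. The genes are Pgk1 (chrX:106186850-106187099, + strand, 2 matches), Pdk1 (chr2:71872974-71873223, + strand, 1 match), P4ha2 (chr11:54100674-54100923, + strand, 3 matches), Ldha (chr7:46845554-46845803, + strand, 5 matches) and Pgam2 (chr11:5803797-5804046, - strand, 0 matches).
Pgk1: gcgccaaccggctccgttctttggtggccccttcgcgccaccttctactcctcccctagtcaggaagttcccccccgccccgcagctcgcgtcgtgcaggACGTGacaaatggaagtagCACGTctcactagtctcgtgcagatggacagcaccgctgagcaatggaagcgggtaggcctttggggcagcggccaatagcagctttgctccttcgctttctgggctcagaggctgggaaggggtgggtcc
Pdk1: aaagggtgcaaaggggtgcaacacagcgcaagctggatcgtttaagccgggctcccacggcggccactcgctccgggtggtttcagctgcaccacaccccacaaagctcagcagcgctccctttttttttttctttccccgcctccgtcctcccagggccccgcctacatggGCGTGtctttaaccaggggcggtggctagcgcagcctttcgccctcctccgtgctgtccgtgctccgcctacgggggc
P4ha2: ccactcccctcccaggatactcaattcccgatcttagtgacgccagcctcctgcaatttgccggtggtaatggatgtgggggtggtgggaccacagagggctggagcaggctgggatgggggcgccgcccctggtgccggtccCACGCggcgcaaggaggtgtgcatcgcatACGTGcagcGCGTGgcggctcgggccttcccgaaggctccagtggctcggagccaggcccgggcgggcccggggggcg
Ldha: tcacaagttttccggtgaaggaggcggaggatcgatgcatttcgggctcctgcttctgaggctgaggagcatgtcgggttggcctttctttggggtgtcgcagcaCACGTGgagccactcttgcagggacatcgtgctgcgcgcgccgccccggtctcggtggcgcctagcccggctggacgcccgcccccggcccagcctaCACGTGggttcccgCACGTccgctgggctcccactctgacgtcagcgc
Pgam2: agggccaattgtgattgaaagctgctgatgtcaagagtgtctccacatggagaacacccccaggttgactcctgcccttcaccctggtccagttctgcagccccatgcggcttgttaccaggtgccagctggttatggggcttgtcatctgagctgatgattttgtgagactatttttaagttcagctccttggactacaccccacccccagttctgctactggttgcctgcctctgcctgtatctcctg

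Of the 32 members, 29 had a promoter entry, and 22 of these (75.9%) held at least 1 match. Where several promoters were listed for a gene, as for Ldha and Pdk1 with 2 each, only the first was read. The share was 54.4% among 12043 genes tested in the whole culture that had an entry and 38.6% among all 27025 genes with an entry. At least 2 matches stood in 14 of the 29. Among members that rose in the whole culture 11 of 16 promoters held a match, and among members with no call 11 of 13 did. A match is a description of these letters and not a bound site. Ldha, with the 5 matches shown above, did not pass the test of the whole culture, while Pgam2, with 0 in this window, did.

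In the whole culture, with every retained cell of a library pooled, 17 of the 32 members rose in the DUX-pulsed libraries, 1 fell and 14 did not pass the test (edgeR's quasi-likelihood test, Benjamini-Hochberg adjusted p under 0.05 over 16140 genes). Of all genes tested, 26.7% were called, 15.6% higher and 11.1% lower. The median log2 fold change was 0.69 over the members and -0.002 over all genes tested. Both DUX-pulsed libraries lay above both controls for 23 members and below them for 4, and the groups overlapped for 5. Over all genes these shares were 33.6% above and 34.0% below. The 19 glycolytic genes from hexokinase to lactate dehydrogenase held 1.38% and 1.35% of all UMIs in the controls against 1.68% and 1.86% in the DUX-pulsed libraries. In such sums, fewer cells of a type and less RNA per cell cannot be told apart.

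The 12 alternative settings left 7 calls in place throughout, those of Slc2a3, Hk1, Pgam2, Eno1, Eno3, Pdk1 and P4ha2. Without control replicate 2 only 9 members were called, with Gpi1, Pfkfb3, Aldoa, Pgk1, Ldhb, Ddit4, Ndrg1, Egln1 and Egln3 lost at log2 values of 0.63 to 0.91. Gpi1, Pgk1, Ddit4 and Eno2 were lost both without control replicate 1 and without DUX-pulsed replicate 2, with Eno2 at log2 1.19 and 0.82. A stricter choice of cells (1000 genes or more, mitochondrial share up to 5%) kept 644 and 523 control and 1320 and 694 DUX-pulsed cells, and 8 members were called in them. There the log2 values of Hk1, Pgam2 and Eno3 were 0.85, 0.79 and 1.15, and each still passed. Pfkp (0.49), Pfkfb3 (0.40), Ddit4 (0.31) and Egln3 (0.57) did not, nor did Gpi1, Aldoa, Pgk1, Eno2, Ldhb and Egln1.

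**Figure D1:**
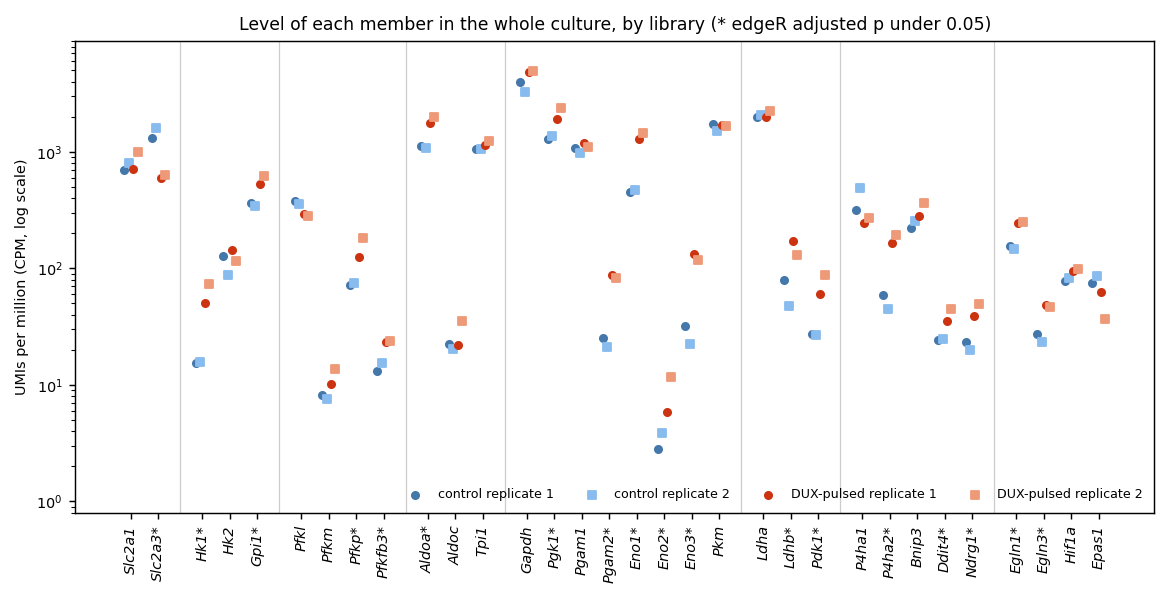
Level of each of the 32 members in the whole culture, in CPM on a log axis, for the 4 libraries (blue controls, red DUX-pulsed), with grey lines between roles and a star where edgeR's adjusted p was under 0.05. The DUX-pulsed points lie above both controls for 23 members, and Slc2a3 is the starred gene where they lie below.

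The glucose transporters went different ways. Slc2a3 encodes GLUT3, a high-affinity glucose transporter, and lies at chr6:122727809-122801640 on the - strand (mm10). Its level was 1311 and 1599.8 CPM in the controls and 597 and 628 CPM in the DUX-pulsed libraries, with no overlap. It fell by 1.25 on the log2 scale (SE 0.17, edgeR adjusted p = 0.0056) and was the single member that fell. Slc2a1, which encodes the widespread transporter GLUT1, stood at 705 and 809.6 CPM in the controls and at 707 and 1004 CPM in the DUX-pulsed libraries. These groups overlapped, and it did not pass (log2 0.18, SE 0.21, adjusted p = 0.575).

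Hk1 changed most among the genes of the first steps. Hexokinase 1, which traps glucose in the cell as glucose 6-phosphate, lies at chr10:62268855-62379908 on the - strand. It stood at 15.4 and 15.5 CPM in the controls and at 50.6 and 73.1 CPM in the DUX-pulsed libraries (log2 2.0, SE 0.21, adjusted p = 0.00293). Both DUX-pulsed libraries were more than 3 times as high as either control. Hk2, the HIF-responsive hexokinase, overlapped between the groups (126 and 86.8 against 145 and 116 CPM) and did not pass. Gpi1, the glucose phosphate isomerase, rose from 367 and 346 to 526 and 622 CPM (log2 0.69, adjusted p = 0.027).

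Phosphofructokinase commits sugar to glycolysis. Its platelet form Pfkp rose from 71.4 and 74.8 CPM to 125 and 181 CPM (log2 1.07, SE 0.21, adjusted p = 0.0151). The liver form Pfkl, the most abundant of the family in each library, stood at 382 and 355 CPM in the controls. In the DUX-pulsed libraries it stood at 294 and 281 CPM. The muscle form Pfkm (chr15:98092589-98132451, + strand) was scarce, at 8.16 and 7.5 CPM against 10.2 and 13.8 CPM. Neither Pfkl (log2 -0.36, adjusted p = 0.122) nor Pfkm (log2 0.61, adjusted p = 0.0809) passed, although their groups did not overlap. Pfkfb3, whose product makes the allosteric activator of phosphofructokinase, rose from 13.0 and 15.5 to 23.5 and 23.6 CPM (log2 0.73, adjusted p = 0.0209).

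Among the aldolases, Aldoa, the form of muscle and many other tissues, rose from 1132 and 1087 CPM to 1783 and 1988 CPM (log2 0.77, adjusted p = 0.0175). Aldoc, the form known from brain, overlapped between the groups, with DUX-pulsed replicate 1 at 22 CPM between the controls at 22.3 and 20.3 CPM. Tpi1, the triose phosphate isomerase, did not pass (log2 0.17). A second row of the table for Aldoa held 1 to 3 UMIs per library and was not added to the first.

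In the lower part of the pathway 5 of 8 members rose, with a median log2 fold change of 1.04 over the 8. Eno3, beta-enolase of muscle, lies at chr11:70657202-70662513 on the + strand. It stood at 32 and 22.2 CPM in the controls and at 134 and 118 CPM in the DUX-pulsed libraries (log2 2.21, SE 0.22, adjusted p = 0.00265). This was a 4.64-fold rise, the largest of the 32 members. Pgam2, the muscle form of phosphoglycerate mutase (chr11:5801640-5803733, - strand), stood at 25.3 and 21 CPM and at 88.4 and 83.0 CPM (log2 1.89, SE 0.16, adjusted p = 0.00251). The common form Pgam1, at 1072 and 972 against 1182 and 1092 CPM, did not pass.

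Eno1, the common alpha-enolase (chr4:150236721-150248879, + strand), rose from 456 and 470.3 CPM to 1301 and 1451 CPM (log2 1.57, SE 0.16, adjusted p = 0.00271). A near copy, Eno1b, had 556, 414, 1215 and 359 UMIs in its own row, and reads that fit both cannot be separated in such counts. Eno2, the enolase of neurons, was scarce and rose from 2.79 and 3.83 to 5.80 and 11.6 CPM (log2 1.39, SE 0.37, adjusted p = 0.0406). Pgk1, the phosphoglycerate kinase whose promoter is shown above, lies at chrX:106187100-106203699. It rose from 1297 and 1369 to 1925 and 2365 CPM (log2 0.69, SE 0.17, adjusted p = 0.0341). Gapdh, the most abundant member at 3267 to 4912 CPM, and Pkm, the pyruvate kinase, did not pass (log2 0.43 and 0.05). The Pkm difference changed sign under another scaling, as given in the closing section.

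At the branch between lactate and the mitochondrion, Ldhb and Pdk1 rose. Ldhb, the lactate dehydrogenase subunit of heart, stood at 79.4 and 47.1 CPM in the controls and at 172 and 129 CPM in the DUX-pulsed libraries (log2 1.25, SE 0.28, adjusted p = 0.0245). Pdk1, the kinase that shuts pyruvate dehydrogenase in low oxygen, rose from 27.1 and 26.6 CPM to 60.2 and 87.1 CPM (log2 1.46, SE 0.21, adjusted p = 0.00608). Ldha, the muscle-type lactate dehydrogenase subunit and a standard HIF target, overlapped between the groups at 2003 to 2260 CPM (log2 0.06, SE 0.16, adjusted p = 0.822).

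Hypoxia targets outside glycolysis were mixed. P4ha2, a collagen prolyl hydroxylase subunit, rose from 58.8 and 44.9 CPM to 165 and 195 CPM (log2 1.79, SE 0.19, adjusted p = 0.00325). Its paralog P4ha1 stood lower in the DUX-pulsed libraries, at 246 and 270.2 CPM against 319 and 489 CPM, and did not pass (log2 -0.65, adjusted p = 0.0885). Ndrg1, a stress-responsive gene, rose from 23.5 and 19.99 to 38.9 and 49.5 CPM (log2 1.02, adjusted p = 0.0108). Ddit4, an inhibitor of mTOR signalling, rose from 24.5 and 24.7 to 35.6 and 44.9 CPM (log2 0.71, adjusted p = 0.0254). Bnip3, a mitophagy receptor, did not pass (log2 0.43, adjusted p = 0.136).

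The oxygen sensor genes Egln1 and Egln3 rose, while the HIF alpha subunits did not pass. Egln1, the main HIF prolyl hydroxylase, rose from 155 and 146 to 244 and 252 CPM (log2 0.72, adjusted p = 0.0158). Egln3, a hydroxylase gene that HIF itself induces, rose from 27.5 and 23.5 to 48.6 and 46.5 CPM (log2 0.90, adjusted p = 0.00947). Their paralog Egln2, counted below with the HIF pathway, stood lower in the DUX-pulsed libraries, at 70.5 and 56.2 against 96.4 and 81.4 CPM. It did not pass (log2 -0.49, edgeR adjusted p = 0.0949). Hif1a RNA stood at 77.8 and 81.9 against 94.0 and 98.0 CPM (log2 0.27, SE 0.14, adjusted p = 0.202). Epas1, which encodes HIF-2 alpha, stood at 74.9 and 85.7 against 62.3 and 36.8 CPM (log2 -0.70, SE 0.26, adjusted p = 0.102). HIF alpha is mainly set at the protein level, which these counts do not measure.

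Members differed strongly between cell classes, and the cardiomyocyte-like class and the unnamed cluster 22 held the highest mean of 17 of them. Levels were set out over 21 classes and clusters with at least 20 cells in a library, as a description with no test, and on plain library totals. The mean over libraries was highest in the cardiomyocyte-like class for 9 members (Gpi1, Aldoa, Tpi1, Gapdh, Eno1, Ldha, Pdk1, Bnip3 and Egln1) and in cluster 22 for 8 (Hk1, Hk2, Pfkm, Pfkp, Pgam1, Pgam2, Eno2 and Eno3). The classes do not all hold the same libraries, so an order between a control-rich and a DUX-rich class also holds the group. Within the same library, cardiomyocyte-like cells exceeded mesenchyme-like cells for 26 and 25 of the 32 members in the controls and for 25 and 28 in the DUX-pulsed libraries, with median log2 differences of 0.76 to 0.97. Neither this count nor that of highest means was taken over all genes, so no background share stands beside them. The 19 glycolytic genes held 2.52% and 2.29% of UMIs in control and 2.88% and 3.05% in DUX-pulsed cardiomyocyte-like cells. In mesenchyme-like cells they held 1.23% and 1.29% in controls and 1.46% and 1.56% in DUX-pulsed libraries. Erythroid-like cells were at the bottom of this order, at 0.976% in control replicate 2 and 1.09% and 1.07% in the DUX-pulsed libraries.

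**Figure D2:**
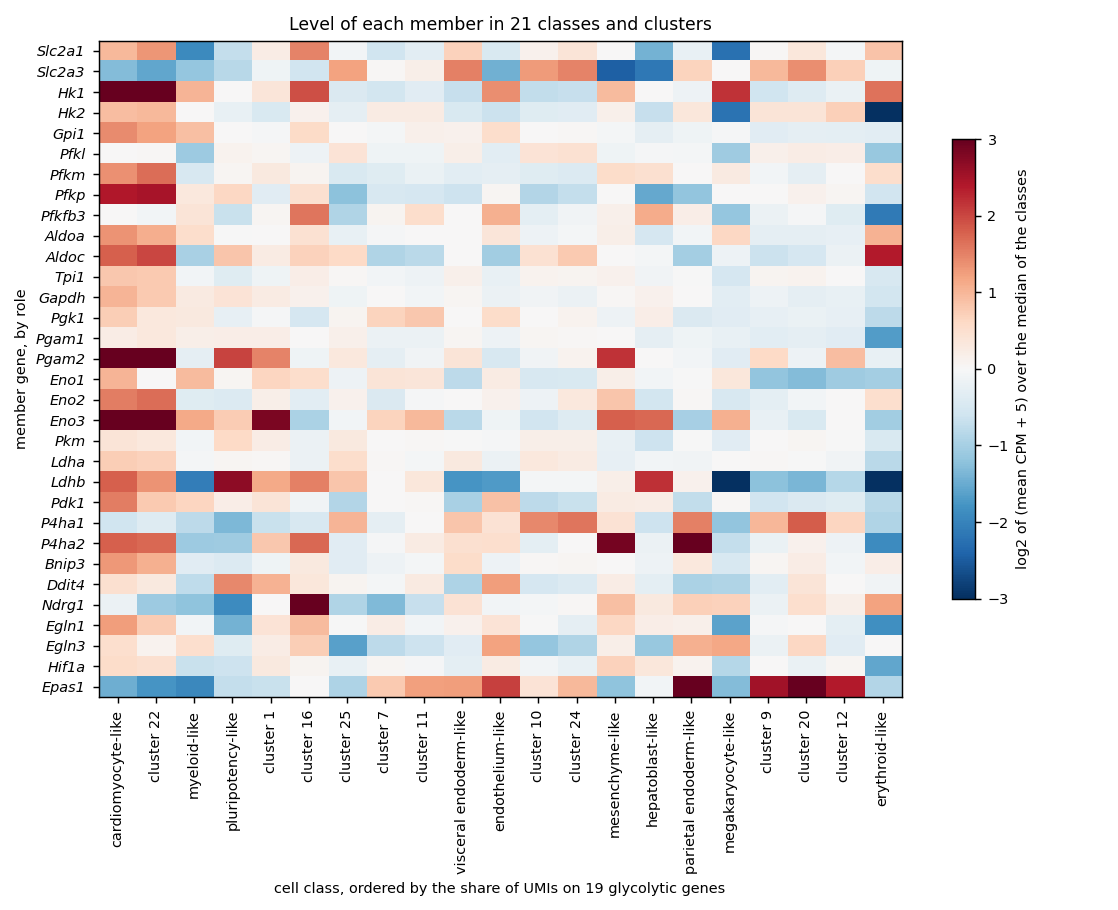
Mean level of each member in 21 classes and clusters, as log2 of CPM plus 5 over the median of the classes (red above, blue below, colours end at 3 and -3), with classes ordered from left to right by the share of UMIs on 19 glycolytic genes. The cardiomyocyte-like class and cluster 22 come first, and Hk1, Pfkp, Pgam2 and Eno3 are reddest there, while Slc2a3 and Epas1 are blue in both.

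Each muscle isoform had its highest means in cluster 22 and in cardiomyocyte-like cells. Eno3 averaged 514 CPM in cluster 22 (455 to 572 over 2 control libraries) and 483 CPM in cardiomyocyte-like cells (330 to 660 over 4 libraries). These neighbours in the order overlapped. It averaged 109.6 CPM in cluster 1, 51.2 CPM in mesenchyme-like cells and 2.87 CPM in erythroid-like cells, the lowest class. Pgam2 averaged 618 CPM in cluster 22 (581 to 654) and 399 CPM in cardiomyocyte-like cells (320.1 to 518), and these did not overlap. It was next highest in mesenchyme-like cells at 26.6 CPM, with a range of 8.83 to 65.1, and no Pgam2 UMI was counted in the endothelium-like cells of 3 libraries. Pfkm averaged 36.7 CPM in cluster 22 and 28.9 CPM in cardiomyocyte-like cells, against 4.29 to 14.1 CPM in the other 19 classes.

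Markers of skeletal muscle were low in cardiomyocyte-like cells, and their part in the levels of the muscle isoforms was not tested. Of 8 skeletal muscle markers in the table, 1 to 3 were detected per library in cardiomyocyte-like cells, at summed levels of 87.7 to 197 CPM. The 18 cardiomyocyte markers summed there to 41553 and 35199 CPM in the controls and to 54266 and 49289 CPM in the DUX-pulsed libraries. In the whole culture they summed to 1907 and 1800.1 CPM in the controls and to 8576 and 10732 CPM in the DUX-pulsed libraries. Hk1 was also highest in these clusters, at 252 CPM in cluster 22 and 214 CPM in cardiomyocyte-like cells, with the megakaryocyte-like class next at 68.1 CPM. Pfkp stood at 459 and 437 CPM in cluster 22 and cardiomyocyte-like cells and at 124 CPM in the pluripotency-like cluster, the next class.

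Added together as clusters, the cardiomyocyte-like class and the unnamed cluster 22 accounted for 5.03% and 3.68% of the cells in the controls, against 19.9% and 20.8% in the DUX-pulsed libraries. They gave 3.26% and 3.07% of the UMIs of the controls and 15.2% and 21.1% of the UMIs of the DUX-pulsed libraries. Of all Pgam2 UMIs, 74.0% and 71.3% came from them in the controls against 95% and 96.4% in the DUX-pulsed libraries. For Eno3 the shares were 57.1% and 55.4% against 78.5% in each DUX-pulsed library. For Hk1 they were 46.9% and 46.2% against 72.6% and 76.0%, for Pfkm 13.4% and 14.6% against 36.3% and 42.8%, and for Pfkp 19.8% and 16.4% against 61.8% and 68.3%. Eno1 was spread more widely, with 5.50% and 5.38% against 26.7% and 35.5% of its UMIs. For Slc2a3 they gave 0.576% and 0.470% of its UMIs against 7.09% and 15.5%, below their share of all UMIs in each library.

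Slc2a3 had its highest means in classes made mostly of control cells. It averaged 2122 CPM in visceral endoderm-like cells, 2101 CPM in cluster 24, 1969 CPM in cluster 20 and 1806 CPM in cluster 10, all measured in the controls only, and the ranges of neighbours in this order overlapped. In cardiomyocyte-like and mesenchyme-like cells it averaged 297 and 131 CPM. Visceral endoderm-like cells accounted for 10.3% and 7.78% of the cells in the controls, against 0.194% and 0.222% in the DUX-pulsed libraries. The part of these shares in the fall of Slc2a3 in the whole culture was not tested. Within each class tested below, its level was higher and not lower in the DUX-pulsed libraries.

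Other hypoxia genes marked other classes. Ndrg1 was highest in cluster 16, led by the placental genes Rhox9, Rhox6 and Sct, at 315 CPM in the 38 cells of DUX-pulsed replicate 1, against 55.9 CPM in erythroid-like cells, the next class. P4ha2 averaged 405 CPM in parietal endoderm-like and 286 CPM in mesenchyme-like cells, 2 matrix-making types, with overlapping ranges. Epas1 averaged 261 CPM in parietal endoderm-like cells, 238 CPM in cluster 20, the next class, and 2.04 CPM in cluster 22. Parietal endoderm-like cells accounted for 1.56% and 0.190% of the cells in the controls, against 11.9% and 1.85% in the DUX-pulsed libraries. The part of these shares in the whole-culture levels of P4ha2 and Epas1 was not tested. Ldhb was highest in the pluripotency-like cluster, at 525 CPM in its only library with enough cells, and lowest in erythroid-like cells at 2.52 CPM. Hif1a varied less, from 24.2 CPM in erythroid-like to 134 CPM in mesenchyme-like cells.

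The DUX effect was tested within classes that had at least 20 cells in each library, apart from the clusters set aside for low depth. A change in class sizes does not enter there, but a change in the mix of cells inside a class can. There were 3 such classes, the cardiomyocyte-like class, the mesenchyme-like class and the unnamed cluster 1. All 3 share the same 4 libraries with each other and with the whole culture, so they are no separate replicates of the result.

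In cardiomyocyte-like cells 8 members rose and 0 fell, where 9.87% of 10958 genes tested were called, 5.05% higher and 4.83% lower. The other 24 did not pass. The median log2 fold change was 0.51 over the members and 0.02 over all genes. Both DUX-pulsed libraries lay above both controls for 23 members and below for 1, against 28.5% and 25.6% of all genes. Smooth muscle markers, 6 in the table, summed in this class to 9067 and 10797 CPM in the controls and to 4300 and 3549 CPM in the DUX-pulsed libraries, and 14 pluripotency markers to 825 and 619 CPM against 178 and 110 CPM. Median mitochondrial shares were 3.95% and 3.52% in the controls against 4.16% and 4.84% in the DUX-pulsed libraries. The part of these differences in the members' changes was not tested.

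Eno1 had the smallest adjusted p of the members there. It stood at 845 and 839.97 CPM in control and at 2403 and 2484 CPM in DUX-pulsed cardiomyocyte-like cells (log2 1.54, SE 0.23, edgeR adjusted p = 3.59e-05). Ldhb rose from 197 and 152 to 474 and 337 CPM (log2 1.21, SE 0.25, adjusted p = 0.00162), and Pdk1 from 94.1 and 65.6 to 155 and 206 CPM (log2 1.16, SE 0.26, adjusted p = 0.0038). Pgk1 rose from 1987 and 1674 to 3022 and 3337 CPM (log2 0.80, adjusted p = 0.0217). Pfkp (log2 0.80, adjusted p = 0.0291), Pfkfb3 (log2 1.19, adjusted p = 0.0466) and Ndrg1 (log2 1.47, adjusted p = 0.0163) rose too.

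Slc2a3 went the other way from the whole culture. In cardiomyocyte-like cells it stood at 231 and 207 CPM in the controls and at 291 and 469.7 CPM in the DUX-pulsed libraries, with no overlap (log2 0.79, SE 0.25, adjusted p = 0.0419). This call was lost in 7 of 12 alternatives, among them without control replicate 1 (log2 0.89), control replicate 2 (0.72) or DUX-pulsed replicate 2 (0.46), with adjusted p from 0.00248 to 0.461, and the value stayed above 0 in each of the 12. In mesenchyme-like cells it stood at 92.5 and 101 against 129 and 207 CPM (log2 0.80, SE 0.24, adjusted p = 0.0877), and in cluster 1 at 488 and 581 against 600.4 and 1056 CPM (log2 0.63, SE 0.26, adjusted p = 0.195). Neither of these passed.

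The muscle isoforms did not pass in cardiomyocyte-like cells. Eno3 stood at 511 and 303 CPM in the controls and at 719 and 436 CPM in the DUX-pulsed libraries, which overlapped (log2 0.50, SE 0.26, adjusted p = 0.257). Pgam2 stood at 378 and 294 against 564 and 387 CPM (log2 0.50, SE 0.25, adjusted p = 0.215). Pfkm stood at 29.7 and 31.3 against 25.5 and 28.6 CPM (log2 -0.17, SE 0.29, adjusted p = 0.786), from 29 and 21 UMIs in the controls. Hk1 did not pass either (log2 0.57, SE 0.24, adjusted p = 0.13). A p above the threshold with 25 control cells in 1 library does not show that the levels were equal.

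Adding cluster 22 to the cardiomyocyte-like class, an alternative chosen after seeing the data, brought the control cells to 142 and 97. Of 11295 genes 17.3% were then called, 9.22% higher and 8.11% lower, and 9 members rose with 0 falling. Pfkp was no longer called (log2 0.44, adjusted p = 0.153), and Egln1 (log2 0.68, adjusted p = 0.0295) and Epas1 (log2 1.38, adjusted p = 0.0435) were gained, the latter at 2.57 and 1.54 against 6.01 and 4.96 CPM. Pgam2 overlapped between the groups at 574 and 475 against 575 and 379.6 CPM (log2 -0.14, adjusted p = 0.737). Eno1, Ldhb, Pdk1, Pgk1, Slc2a3, Pfkfb3 and Ndrg1 were called in both.

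The count in the cardiomyocyte-like class also rested on single libraries, with 3 members called without control replicate 2 and 3 without DUX-pulsed replicate 2, in place of 8. Eno1 and Ldhb were called in all 12 alternatives. Pdk1 was lost without control replicate 2 (log2 0.94), and Pgk1 and Pfkp without control replicate 2 (log2 0.68 and 0.59) or DUX-pulsed replicate 2 (log2 0.78 for each). Pfkfb3 stood at log2 2.07 without control replicate 1 and at 0.78, with no call, without control replicate 2. Pfkfb3 was also lost with DESeq2, by library size alone, without DUX-pulsed replicate 2 and in the stricter choice of cells, with adjusted p up to 0.404. Clusters made with all variable genes (log2 0.37) and the stricter choice of cells (0.72) also ended the call of Pfkp. Ndrg1 was lost in 4 of 10 alternatives, without control replicate 1 (log2 1.39) or control replicate 2 (1.55), with DESeq2 (1.47) and in the stricter choice of cells (0.93), with adjusted p up to 0.223.

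In mesenchyme-like cells 6 members rose and 0 fell, where 7.55% of 12112 genes were called, 4.42% higher and 3.14% lower. The median log2 fold change was 0.39 over the members and -0.002 over all genes. Both DUX-pulsed libraries lay above both controls for 20 members and below for 3, against 26.1% and 25.8% of all genes. Median mitochondrial shares there were 4.87% and 5.24% in the controls against 3.22% and 3.55% in the DUX-pulsed libraries, and their part was not tested. Mesenchyme markers, 18 in the table, summed to 6282 and 7372 CPM in the controls and to 8681 and 14452 CPM in the DUX-pulsed libraries. In clusters made with all variable genes, this class held 80 and 39 control and 232 and 213 DUX-pulsed cells. A cluster in it led by Postn and Col1a1 held 34 and 20 control and 135 and 120 DUX-pulsed cells. An unnamed cluster there, closest to the mesenchyme list, held 144 and 98 control and 234 and 112 DUX-pulsed cells. The part of such a mix in the members' changes was not tested.

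P4ha2 rose in these collagen-making cells from 174 and 201 CPM to 320.4 and 469.7 CPM (log2 1.07, SE 0.22, edgeR adjusted p = 0.0271). Egln3 rose from 24.4 and 25.5 to 47.6 and 57.0 CPM (log2 1.07, SE 0.19, adjusted p = 0.0163), and Ndrg1 from 23.6 and 25.8 to 45.4 and 85.8 CPM (log2 1.41, SE 0.30, adjusted p = 0.0282). For all of these the DUX-pulsed libraries lay above both controls, with DUX-pulsed replicate 2 the higher. The glycolytic genes that rose were Aldoa (log2 0.74, adjusted p = 0.0365), Pgk1 (log2 0.75, adjusted p = 0.0396) and Eno1, from 489.6 and 508 to 1279.7 and 1347 CPM (log2 1.40, SE 0.17, adjusted p = 0.00549). Eno3 (log2 0.36, adjusted p = 0.378) did not pass. In the stricter choice of cells the calls of Pgk1, Ndrg1 and Egln3 were lost. By library size alone those of Aldoa and Pgk1 were lost, and in clusters made with all variable genes that of Ndrg1. Without DUX-pulsed replicate 2 only Eno1 was called in this class, with P4ha2, Ndrg1 and Egln3 at log2 0.78, 0.89 and 0.94. Aldoa and Pgk1 were also lost without control replicate 1 or DUX-pulsed replicate 1, with log2 values of no less than 0.58 and 0.56 over 11 alternatives.

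Cluster 1, led by Foxe1, Sox2 and Shh, held 40 and 24 control and 94 and 33 DUX-pulsed cells. Of the 31 members tested, 3 rose and 0 fell, where 4.98% of 9579 genes were called, 3.29% higher and 1.69% lower. Eno2 was too scarce to test. The members' median log2 fold change was 0.38, against -0.005 over all genes. Eno1 rose from 713 and 703 to 1777 and 1783 CPM (log2 1.33, SE 0.19, edgeR adjusted p = 0.00588). Ddit4 rose from 45 and 41.3 to 103 and 81.7 CPM (log2 1.11, SE 0.22, adjusted p = 0.019). Ndrg1 rose from 6.52 and 0.960 to 35.2 and 44.3 CPM (log2 3.20, SE 0.49, adjusted p = 0.00704), on 10 and 1 UMIs in the controls against 104 and 51 in the DUX-pulsed libraries. The groups did not overlap for any of the 3. Eno1 and Ndrg1 were called in each of 10 alternatives, and Ddit4 was lost in 6 of the 10. These were without either control or DUX-pulsed replicate 1 (log2 0.93 to 1.17), with DESeq2 (1.10), without the top doublet scores (0.83) and in the stricter choice of cells (0.77). Without control replicate 1 the Ndrg1 value rested on 1 control UMI (log2 5.25). The count was 5 without DUX-pulsed replicate 1 and 6 without DUX-pulsed replicate 2, in place of 3.

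**Figure D3:**
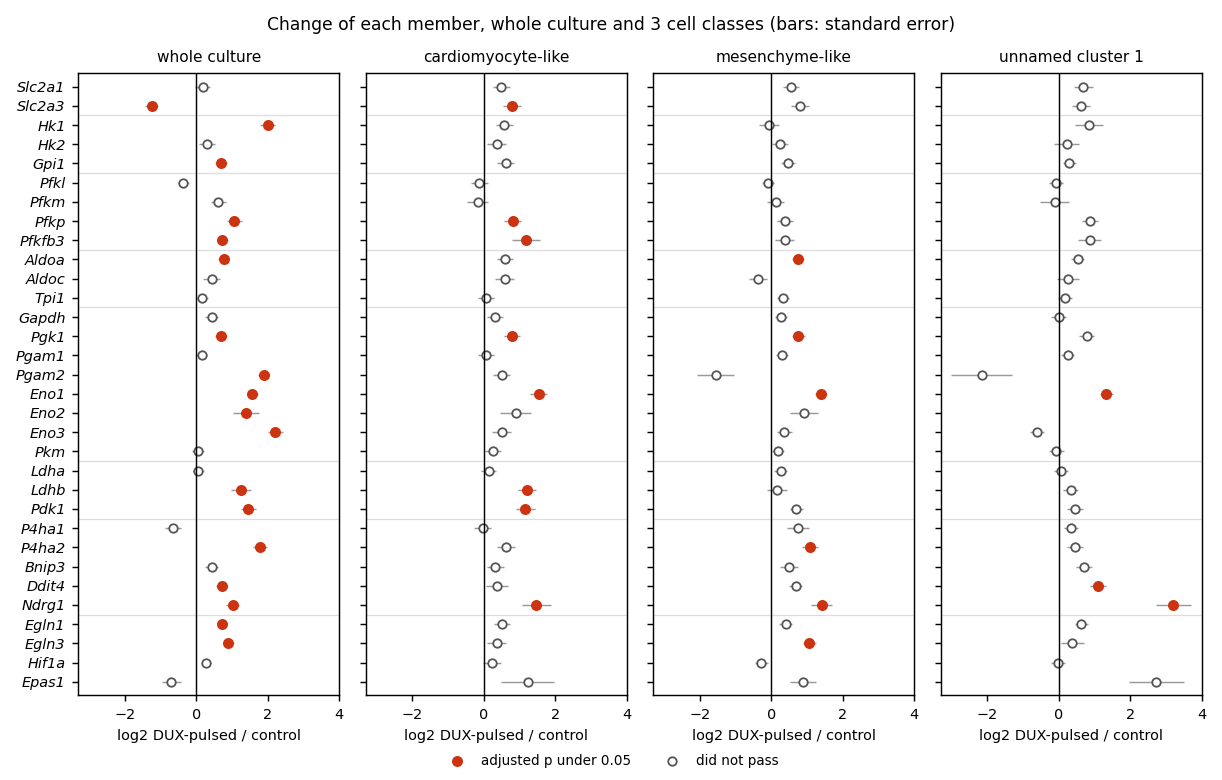
Log2 fold change (DUX-pulsed over control) of each member with its standard error, in the whole culture and in 3 classes, with filled red points where edgeR's adjusted p was under 0.05. Eno1 is red in every panel, Hk1, Pgam2 and Eno3 are red in the whole culture only, and Slc2a3 lies left of 0 in the whole culture and right of it in the classes.

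Whether the DUX effect differed between cardiomyocyte-like and mesenchyme-like cells was tested with an interaction term, with the library as a block. Over 12816 genes 5.14% were called, and 3 of 32 members were, all with a positive difference, cardiomyocyte-like minus mesenchyme-like, a direction in which 2.5% of all genes were called. The members' median difference was 0.17 on the log2 scale, against 0.11 over all genes. For Ldhb the difference was 1.19 (SE 0.18, edgeR adjusted p = 0.0014), with mesenchyme-like levels of 96.3 and 71.7 against 121 and 66.8 CPM that overlapped. For Pgam2 it was 2.0 (SE 0.44, adjusted p = 0.016) and for Aldoc 1.05 (SE 0.26, adjusted p = 0.0318). Mesenchyme-like Pgam2 levels were 17.2 and 59.8 CPM in the controls and 16.1 and 9.20 CPM in the DUX-pulsed libraries. Control replicate 2 was the high one, and cardiomyocyte markers in that class were also highest there, at 1183 CPM against 360.1 to 545 CPM in the other libraries. Their part in the Pgam2 value was not tested. With cluster 22 added to the cardiomyocyte-like class, Ldhb was still called (0.96, adjusted p = 0.00145), while Pgam2 (1.35, adjusted p = 0.0655) and Aldoc (0.64, adjusted p = 0.0801) were not. Aldoc was also lost without control replicate 2 (0.66) or DUX-pulsed replicate 1 (0.90), and in clusters made with all variable genes (0.20). Without control replicate 1 the Pgam2 and Aldoc differences were 3.04 and 1.58 and 7 members were called, and without control replicate 2 the Pgam2 difference was 0.80 and 5 members were called.

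The share of the muscle form among the UMIs of its enzyme family gives a second view, free of library size. Over 2 against 2 libraries an exact two-sided permutation test cannot go below p = 0.333, so no such difference can pass. Intervals below are exact 95% binomial intervals and cover counting error only. In the whole culture Pgam2 made up 2.31% and 2.12% of phosphoglycerate mutase UMIs in the controls against 6.96% and 7.07% in the DUX-pulsed libraries. Eno3 made up 6.51% and 4.48% of enolase UMIs against 9.29% and 7.47%, and Pfkm 1.77% and 1.72% of phosphofructokinase UMIs against 2.39% and 2.89%. The DUX-pulsed libraries were higher in all 3, with exact p = 0.333 each. In the stricter choice of cells the Eno3 difference was -1.54 percentage points in place of 2.88, and the Pgam2 difference was 2.48 in place of 4.80.

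Inside cardiomyocyte-like cells the order was not the same. Eno3 made up 37.5% (34.9 to 40.2) and 26.0% (22.9 to 29.2) of enolase UMIs in the controls and 22.9% (22.4 to 23.4) and 14.8% (14.3 to 15.3) in the DUX-pulsed libraries. The mean difference was -12.9 percentage points, with the DUX-pulsed libraries below both controls and exact p = 0.333. This share has Eno1 in its denominator, whose level rose, while the Eno3 level did not pass. Cluster 22 had Eno3 shares of 43.7% and 34.1% in the controls. In cluster 1 the Eno3 share was 16.6% and 15% in the controls against 4.80% and 4.58% in the DUX-pulsed libraries. The Eno3 level was also lower there, at 142 and 125 against 89.9 and 86.1 CPM, with no overlap. It did not pass (log2 -0.60, edgeR adjusted p = 0.1065). Pgam2 levels in cluster 1 overlapped, at 48.2 and 1.92 against 7.78 and 2.61 CPM (log2 -2.15), and did not pass.

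Pgam2 made up 21.6% and 19.9% of phosphoglycerate mutase UMIs in control and 28.4% and 23.5% in DUX-pulsed cardiomyocyte-like cells. With cluster 22 added, the order was lost, at 29.1% and 27.1% against 28.8% and 23.5%. Pfkm stayed a minor form even in cardiomyocyte-like cells, at 3.94% (2.65 to 5.61) and 5.01% (3.13 to 7.56) in the controls against 2.86% and 3.14% in the DUX-pulsed libraries. The platelet form Pfkp was the main phosphofructokinase there in both DUX-pulsed libraries, at 59.7% and 65.6%, against 50% and 43.0% in the controls. In control replicate 2 of that class the liver form Pfkl stood above it, at 325 against 269 CPM. In the whole culture Pfkp made up 16.3% ± 1.16 (SD, n = 2) of the family in the controls and 33.6% ± 6.36 in the DUX-pulsed libraries (exact p = 0.333).

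**Figure D4:**
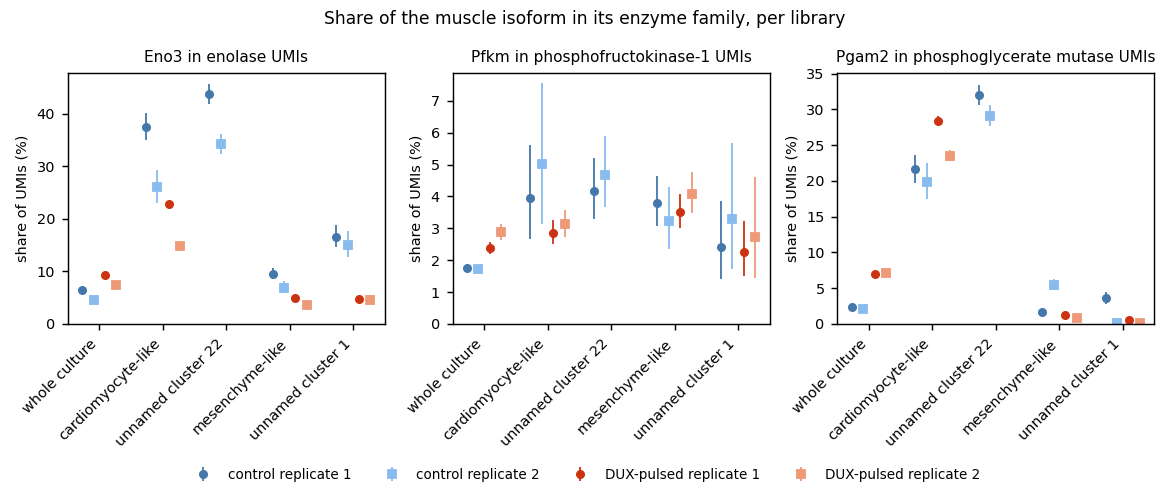
Share of Eno3, Pfkm and Pgam2 in the UMIs of their enzyme families, in percent, per library in the whole culture, cardiomyocyte-like cells, cluster 22, mesenchyme-like cells and cluster 1, with exact 95% binomial intervals as bars. Cluster 22 shows controls only, since its 6 and 4 DUX-pulsed cells were too few, and Eno3 shares in cardiomyocyte-like cells lie lower in the DUX-pulsed libraries (22.9% and 14.8%) than in the controls (37.5% and 26.0%).

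Eno1 lies in a stretch of chromosome 4 in which most genes were higher in the DUX-pulsed libraries. Within 5 Mb of it, 94 of 106 other genes tested had a positive log2 fold change in the whole culture, with a median of 0.84. In cardiomyocyte-like cells the count was 62 of 65 (median 1.03), in mesenchyme-like cells 76 of 78 (median 0.91) and in cluster 1 51 of 54 (median 0.83). Bins from 15 Mb before to 10 Mb after Eno1, past the last gene tested on that side, had medians of 0.83 to 1.07 in the 4 fits. The change of Eno1, at 1.33 to 1.57, was larger than these medians in each fit. Many neighbours lie above a median by its definition, and the rank of Eno1 among them was not taken. Pfkfb3 (median 0.54, 20 of 29 neighbours higher) and Ndrg1 (median 0.98, 12 of 15 higher) also had shifted neighbours in the whole culture. For the other members the neighbourhood medians lay between -0.15 and 0.15 there, and for all members but Eno1 between -0.18 and 0.19 in the classes. What shifts these stretches was not tested.

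**Figure D5:**
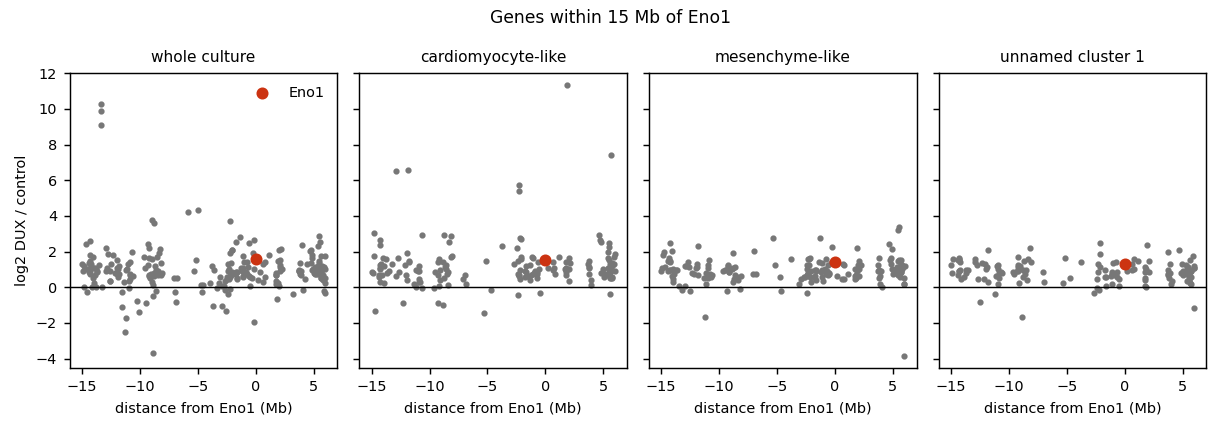
Log2 fold change (DUX-pulsed over control) of each gene tested within 15 Mb of Eno1 against its distance in Mb, in the whole culture and 3 classes. Grey points are the neighbours, most of them above 0, and the red point is Eno1, at 1.57, 1.54, 1.40 and 1.33.

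Other genes of the pathway, 78 listed with 75 in the table, were tested in the same whole-culture fit. Of 70 tested, 15 rose, 5 fell and 50 did not pass, with a median log2 fold change of 0.27. The 20 called of 70 stand beside 26.7% called of all genes in this fit, 15.6% higher and 11.1% lower, so their share is near the background. The count was 9 without control replicate 1 and 8 without control replicate 2, in place of 20. Among 23 HIF target genes 5 rose (Car9, Car12, Adm, Mxi1 and Fam162a) and 2 fell, and among 7 genes of the HIF pathway 1 rose, the inhibitory subunit gene Hif3a. Among 13 genes of pyruvate entry into the mitochondrion 5 rose (Mpc1, Dlat, Pdk2, Pdk3 and Pdp1) and 0 fell. The 5 include Pdk2 and Pdk3, kinase genes of the Pdk1 family, so the genes counted do not all act in 1 direction. Of 15 other glycolytic enzymes and transporters 1 rose, the phosphoglucomutase gene Pgm2, and 2 fell. Car9, a carbonic anhydrase and standard HIF target, rose from 0.0734 and 0.134 to 1.07 and 1.13 CPM (log2 3.40, adjusted p = 0.0047). Adm, the peptide hormone adrenomedullin and another HIF target, rose from 12.8 and 13.1 to 27.6 and 34.8 CPM (log2 1.27, adjusted p = 0.00499). Mpc1, a subunit of the mitochondrial pyruvate carrier, rose by 1.04 on the log2 scale (adjusted p = 0.00991). H6pd, an endoplasmic reticulum enzyme of the pentose phosphate branch, rose by 1.89 (adjusted p = 0.00757) and lies in the same stretch of chromosome 4 as Eno1.

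Among the pathway genes that fell was Slc16a1, which encodes the lactate carrier MCT1. It stood at 522 and 718 CPM in the controls and at 154 and 149.9 CPM in the DUX-pulsed libraries (log2 -2.03, SE 0.20, adjusted p = 0.0027). Stc2, a secreted glycoprotein, and G6pc3, a glucose 6-phosphatase, fell by 0.98 and 0.62 on the log2 scale (adjusted p = 0.0118 and 0.0217). The HIF target Ankrd37 fell too (log2 -0.62, adjusted p = 0.0359).

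Within classes, 7 of 59 pathway genes rose and 1 fell in cardiomyocyte-like cells, 4 of 61 rose in mesenchyme-like cells, and 1 of 47, the oxidase gene Ero1l, rose in cluster 1. Of all genes tested there, 5.05%, 4.42% and 3.29% were called higher, and the counts in mesenchyme-like cells and cluster 1 are near these shares. The 7 in cardiomyocyte-like cells were 4 of 20 HIF target genes and 3 of 13 genes of pyruvate entry into the mitochondrion. The latter are not named below. The genes named next were chosen after their values were seen. Their calls within classes were not followed over the alternatives. Vegfa, the vessel growth factor, rose in cardiomyocyte-like cells from 61.4 and 47.7 to 133 and 232 CPM (log2 1.72, SE 0.29, adjusted p = 0.00015). Adm rose there (log2 1.57, adjusted p = 0.000721) and in mesenchyme-like cells (log2 2.45, adjusted p = 0.0137). Stc2, which fell in the whole culture, rose in cardiomyocyte-like cells from 17.4 and 7.46 to 24.1 and 37.8 CPM (log2 1.23, adjusted p = 0.0348). Cited2, which competes with HIF for its coactivator, fell there from 620.1 and 849 to 363 and 346 CPM (log2 -1.05, adjusted p = 0.00361). In mesenchyme-like cells Car9, Hif3a and H6pd were the other genes that rose.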

How the data were processed

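Single-cell RNA of 2 control and 2 DUX-pulsed libraries was measured with 10x Genomics droplets. The deposited table held whole-number UMI counts per gene and cell. Per the submitters' processing notes, the tools were Cell Ranger 2.2.0 and STAR and the build was mm10, and an upstream filter on cells is not given in the sources used here. Of 10090 cells, 8876 passed minimum 500 genes and maximum 10% mitochondrial share. Scrublet marked 27 cells (0.304%), too few to have worked, so doublets were kept, and the top 5% of its scores were removed as an alternative.

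Cells were clustered without the members and the other pathway genes (scanpy 1.11.5, igraph 0.11.9: 10000 UMIs per cell, log scale, 2000 variable genes, 30 components, 15 neighbours, Leiden resolution 1, no batch correction). A name needed at least 4 of the top 30 genes from a list, at least 3 markers and 50% of them raised 2-fold, and no other list with more of the top 10 genes. The classes were thus rebuilt here and are not the authors' own. UMIs were summed per library, in all or per class, and tested with edgeR 4.0.16 (R 4.3.3; quasi-likelihood, TMM) on genes with at least 10 UMIs in 2 libraries and 40 in all. P-values are two-sided and adjusted by Benjamini-Hochberg over all genes tested, with a threshold of 0.05. CPM in the tests uses TMM-scaled totals, and CPM across classes plain totals. The edgeR step was checked on simulated counts.

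Gene positions came from GENCODE vM21 and promoters from RefSeq. The members, lists and marker sets were chosen with earlier results of these data known. Named in full were up to 12 called members with the largest change, the muscle isoforms and their families, the transporters, the HIF alpha subunits, members called in a class against the whole culture, and up to 4 pathway genes in each direction by smallest p. Alternatives were DESeq2 1.42.0, library size alone, no filter, stricter cells, thinning to 5000 UMIs per cell, every deposited cell, a replicate block, leaving out each library, clusters made with all variable genes and, chosen after seeing the data, cluster 22 in the cardiomyocyte-like class. A gene of the pathway list is not reported here.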

Additional observations from a re-analysis of the deposited data

Results flagged for a closer look

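For 3 members the DUX effect differed between cardiomyocyte-like and mesenchyme-like cells by the test of the interaction. The difference of the log2 fold changes, cardiomyocyte-like minus mesenchyme-like, was 1.19 for Ldhb, 2.0 for Pgam2 and 1.05 for Aldoc. The adjusted p from edgeR ran over the alternatives from 0.0278 to 0.723 for Aldoc and up to 0.0655 for Pgam2.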

How the results depend on the processing

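Numbered replicates are not stated to share a day or culture, and same-numbered libraries deviated together with correlations of 0.35 in the whole culture, 0.16, 0.31 and 0.17 in the cardiomyocyte-like, mesenchyme-like and cluster 1 fits. With only 2 pairs no pairing was taken from this. The replicate block gave 23 member calls in the whole culture in place of 18, 16 in place of 8, 17 in place of 6 and 13 in place of 3 in those classes, and 36 pathway calls in place of 20.

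Leaving out 1 library gave 9 to 22 member calls in the whole culture and 8 to 28 pathway calls. In the cardiomyocyte-like, mesenchyme-like and cluster 1 fits it gave 3 to 9, 1 to 8 and 2 to 6 member calls, and 3 to 7 for the difference between classes. Stricter cells (1000 genes or more, mitochondrial share up to 5%) gave 8 member and 8 pathway calls in the whole culture, 4 in the cardiomyocyte-like and 3 in the mesenchyme-like class. They gave share differences of -1.54 (Eno3) and 2.48 (Pgam2) percentage points in the whole culture and 9.02 (Pgam2) in cardiomyocyte-like cells. No filter gave 13 calls in mesenchyme-like cells and 9 in cluster 1, and DESeq2 gave 5 in cardiomyocyte-like cells. Clusters made with all variable genes gave 6 calls for the difference between classes and turned the cardiomyocyte-like Pgam2 share difference to -2.85 points. Adding cluster 22 gave 6 calls and -1.97 points. Removing top doublet scores gave 4.96 points for Pgam2 in the whole culture. The sign of near-zero values turned for Slc2a1 (-0.091 to 0.42 on leaving out 1 library), Pkm (-0.0054 by library size alone, -0.048 without control replicate 2) and Ldha (-0.0016 by library size alone, -0.025 without DUX-pulsed replicate 2, -0.0047 in the stricter cells). Of the other values for single genes, 586 kept their side of the threshold, 84 lost a call and 14 gained one. The causes were not tested. The smallest library tested held 25 cells in the cardiomyocyte-like class and 24 in cluster 1, which limits precision there.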
